A study of Homo sapiens with 8 samples.

Results

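HSD17B14 encodes a short-chain dehydrogenase that oxidises estradiol to the weaker estrogen estrone. The data described here are the 4 arrays of the ZR75-1 line, 2 of cells given an HSD17B14 plasmid and 2 of cells given the empty vector, out of 8 arrays in all. ZR75-1 is an established human breast cancer line, estrogen receptor positive per the labels. The cells were kept in a medium free of phenol red, a weak estrogen mimic, with 4% serum. They received DNA with FuGene-6, a lipid reagent, 24 h after seeding and were collected 48 h later. Total RNA, 5 ug per labelling, was measured on Affymetrix HG-Focus arrays. The other 4 arrays hold the same pair of groups in cells labelled SKBR3, estrogen receptor negative per the labels, and serve here for comparison only. The labels call the samples duplicates without saying that they came from separate cultures, so a p-value measures only the spread between arrays. In a transfected culture, a change in all cells and a larger change in those that took up the plasmid cannot be told apart.

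The question was what the plasmid changed outside the interferon response, in metabolism, chromatin, adhesion, the cytoskeleton and secretion. A cell makes ATP by glycolysis in the cytosol and by the respiratory chain in mitochondria, and breast cancer cells often build fatty acids of their own through FASN, the fatty acid synthase. Histones wrap the DNA, and remodelling complexes and histone-modifying enzymes open or close it. Integrins tie the actin cytoskeleton to the matrix, and secreted proteins pass through the ER and the Golgi on their way out.

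The defining markers of luminal breast epithelium were present on the ZR75-1 arrays. All 10 of them, among them KRT8, KRT18, EPCAM, GATA3 and ESR1, lay on all 4 arrays above 17.6, the highest of the arrays' 40th percentiles of signal, called the floor below. Their summed signal was 22296.5 and 20753.3 with HSD17B14 and 22974.9 and 23915.1 in the controls, and 1 of the 10, MUC1, fell. Of 4 basal or myoepithelial, 5 fibroblast, 3 immune and 4 endothelial markers on the array, 1, 1, 0 and 0 lay above the floor on all 4 arrays. Their sums ran from 5.4 to 84.2. The SKBR3-labelled arrays had ERBB2 signals of 25.9 to 46.8 against 95.9 to 226 in ZR75-1, although SKBR3 is known for extra copies of that gene, so they are called by their label.

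HSD17B14 gave signals of 107.5 and 135.3 on the plasmid arrays, against 17.8 and 2.1 on the vector arrays. The arrays with the plasmid were the higher ones, with a fitted log2 change of 4.30 ± 0.78 (SE, n = 2 arrays per group, limma adjusted p = 0.0296). Its size rests on control values at and under the floor, and it ran from 2.76 to 5.84 when 1 array of ZR75-1 was left out. With values raised to the floor the change was 2.77, or 6.81-fold (adjusted p = 0.0165).

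Outside the interferon list, 33 of 5457 tested genes rose with the plasmid (0.605%) and 44 fell (0.806%), by limma with a Benjamini-Hochberg adjusted p under 0.05 over all probe sets. At an unadjusted p under 0.05 the counts were 436 and 533, and the median log2 change of the 5457 genes was -0.05. The arrays of the groups did not overlap for any of the 77 called genes, as for 46.6% of all 5457. Of the interferon list, 11 of 95 tested genes rose and 0 fell, and these are not described further. A called gene was on 1 of the lists below in 38 cases and on none in 39. The lists were chosen with earlier results of these data known, so a count of calls in a list is not a test of that list.

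These counts depend on single arrays and on the scaling. They were 2 higher and 9 lower without HSD17B14 array 1, 8 and 28 without HSD17B14 array 2, 49 and 17 without control 1, and 22 and 10 without control 2. Arrays of the other line enter through the shared estimate of spread, and the counts were 4 and 14 without either SKBR3-labelled HSD17B14 array and 39 and 73 without SKBR3-labelled control 2. Centring each array on its median moved the median change to 0.15 and the split to 13 higher and 5 lower, against 31 and 30 after quantile normalization. A list's median after centring is thus to be read against 0.15, and its median as deposited against -0.05. Centring shifts the change of every gene by the same amount, so it cannot alter a list's distance from all genes. The actin 3'/5' ratio, a measure of RNA integrity, was 2.83 and 2.66 on the HSD17B14 arrays and 2.03 and 2.02 on the controls, while the GAPDH ratio was 0.896 and 0.883 against 1.084 and 1.039. Neither ratio overlapped between the ZR75-1 groups, so there the plasmid and the ratios cannot be told apart. Within groups the actin ratio varied mainly on the SKBR3-labelled arrays (2.28 and 3.09 with HSD17B14, 3.6 and 3.0 in the controls). A covariate fit takes its slope mostly from those arrays, so it cannot separate the 2 in ZR75-1. With the actin ratio as a covariate 0 genes were higher and 1 was lower, while all 77 genes kept their sign. The median size of their log2 change was 1.16 in that fit against 1.10, and their median SE was 0.30 against 0.21. FASN, for example, had a log2 change of -1.95 ± 0.34 (adjusted p = 0.11), and HSD17B14 itself had 4.65 ± 1.13 and was not called (adjusted p = 0.248).

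**Figure D1:**
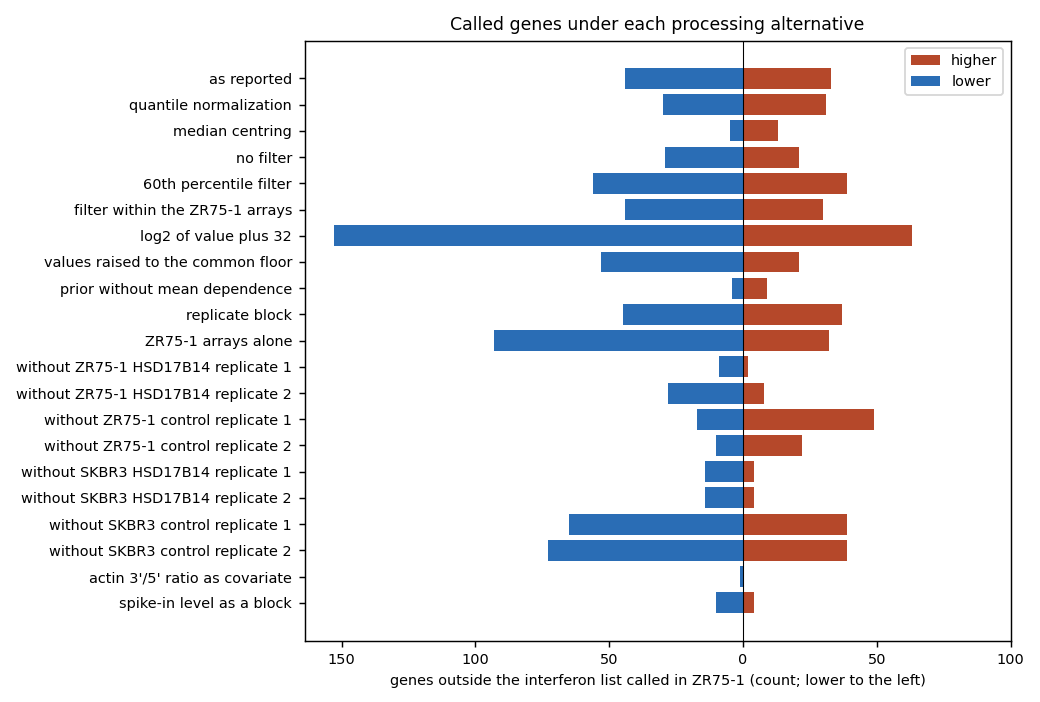
Bars give the number of genes outside the interferon list called higher (right, red) or lower (left, blue) in ZR75-1, as reported and under each of 20 processing alternatives. The counts run from 0 higher and 1 lower with the actin ratio as a covariate to 63 and 153 with log2 of the value plus 32.

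Of the 77 called genes, 17 were called under at least 12 of the 20 alternatives, and the 9 called under at least 15 are named here. UCP2, a carrier of the inner mitochondrial membrane, was called in 19 of 20, including the fit with the actin ratio (adjusted p = 0.00946). IGFBP4, a secreted protein that binds insulin-like growth factors, was called in 18. CSRP2, GNB2, PLOD3 and H1-2 were called in 16 each, and EPHX1, CD81 and PKM in 15 each. Only UCP2, IGFBP4 and CSRP2 were called without each of the 4 ZR75-1 arrays in turn. CSRP2 differs from UCP2 and IGFBP4 in that all its ZR75-1 signals lie under the floor. Its change was 0 with values raised to the floor, and its adjusted p was 0.163 with ZR75-1 arrays alone (SE 1.37 against 0.37). The fitted change of 72 of the 77 genes kept its sign in every alternative that tested it. The other 5, CSRP2, CXCL2, HSD17B11, SRPX and ROR1, a receptor of Wnt ligands, lay under the floor on all 4 ZR75-1 arrays and had a change of 0 with values raised to it.

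**Figure D2:**
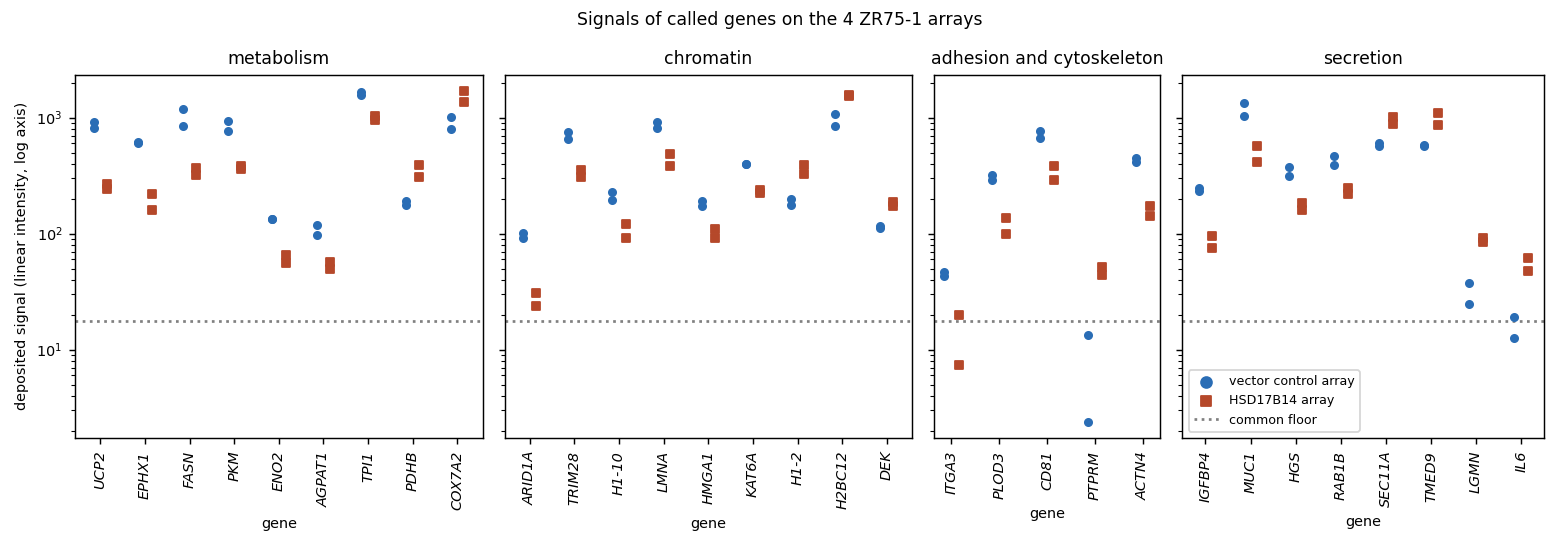
Each point is the deposited signal of a called gene's probe set on 1 ZR75-1 array, on a log axis, with circles for the vector controls and squares for HSD17B14, and the dotted line marks the floor of 17.6. Within each gene the circles and squares do not overlap, as for all 77 called genes and 46.6% of all genes. Heights of different genes are not comparable.

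In metabolism, 4 of 315 tested genes rose and 7 fell, against shares of 0.605% and 0.806% over all genes. The falls were in glycolysis, fatty acid synthesis, a mitochondrial carrier and a detoxifying enzyme, and the rises were a subunit of pyruvate dehydrogenase, a subunit of cytochrome c oxidase, the transfected HSD17B14 and, from signals under the floor, the steroid dehydrogenase HSD17B11. The median log2 change over the 315 was -0.03, close to the -0.05 of all genes.

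Glycolysis splits glucose to pyruvate, and 3 of 26 tested genes of glycolysis and gluconeogenesis fell, none rose and 23 did not pass. PKM, the pyruvate kinase of the last step, had signals of 364.4 and 385.6 with HSD17B14 and 767.1 and 937.8 in the controls, a 2.26-fold fall (log2 -1.18 ± 0.17, limma adjusted p = 0.0109). ENO2, an enolase of the step before, had 56.3 and 65.4 against 134.9 and 134.9 (2.22-fold lower, adjusted p = 0.0449). Both HSD17B14 arrays lay below both controls in each case, but a lack of overlap holds for all 77 called genes and 46.6% of all genes. TPI1, the isomerase that interconverts the triose phosphates, had 950.3 and 1037.2 against 1555.3 and 1668.9 (1.62-fold lower, adjusted p = 0.0304). FBP1, the phosphatase of gluconeogenesis, had 129.7 and 129.5 against 205.7 and 248.2 and missed the threshold (adjusted p = 0.0512). The list's median was -0.29, with 19 of 26 genes below 0, and -0.08 after centring.

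Fatty acid synthesis gave 2 falls among 19 tested genes and no rise. FASN had signals of 371.2 and 319.9 against 1183.4 and 847.1, a 2.91-fold fall (log2 -1.54 ± 0.26, adjusted p = 0.0257). AGPAT1, which acylates lysophosphatidic acid on the way to phospholipids and triglycerides, had 57.1 and 49.4 against 117.8 and 98.0 (2.02-fold lower, adjusted p = 0.0449). A further AGPAT1 probe set had a log2 change of -0.86 ± 0.34 and did not pass (adjusted p = 0.216). SREBF1, the transcription factor that drives lipid synthesis genes, had 97.4 and 96.0 against 190.4 and 185.2 (log2 -0.96 ± 0.24, adjusted p = 0.0688). The list's median was -0.33, and -0.13 after centring. PTDSS1, which makes phosphatidylserine and was on no list, fell 2.05-fold (adjusted p = 0.0147). None of 23 fatty acid oxidation and 24 cholesterol genes was called by limma, and their medians were -0.13 and 0.02. At an unadjusted p under 0.05 the oxidation list had 2 higher and 4 lower, and the cholesterol list 2 and 0.

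Among mitochondrial genes, UCP2 fell and a respiratory chain subunit rose. UCP2 had signals of 267.6 and 243.7 against 911.8 and 817.5 (3.38-fold lower, log2 -1.76 ± 0.18, adjusted p = 0.00181), the 1 call among 16 carriers. COX7A2, a small subunit of cytochrome c oxidase (complex IV), had 1372.0 and 1696.6 against 806.6 and 1004.2 (1.70-fold higher, adjusted p = 0.0403). It was the 1 call among 57 genes of the respiratory chain and ATP synthase, of which 10 were higher and 4 lower at an unadjusted p under 0.05. Of the 57, 47 had a fitted change above 0, against 46.3% of all genes, and the median was 0.23. By complex, this held for 20 of 25 genes of complex I, 5 of 7 of complex III with cytochrome c, 13 of 13 of complex IV and 9 of 12 of ATP synthase, with medians of 0.21, 0.27, 0.24 and 0.19. The list's median was 0.43 after centring and 0.18 after quantile normalization, and -0.09 in the SKBR3-labelled cells. UQCRC1, a core subunit of complex III, went the other way, at 273.8 and 309.6 against 458.3 and 461.9, and did not pass (adjusted p = 0.0623).

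Pyruvate enters the citrate cycle through pyruvate dehydrogenase. PDHB, its E1 beta subunit, had signals of 387.9 and 308.2 against 191.2 and 175.5, a 1.89-fold rise (log2 0.92 ± 0.16, adjusted p = 0.0273), and was the 1 call among 24 genes of the citrate cycle and pentose phosphate pathway. IDH2, the mitochondrial isocitrate dehydrogenase, had 357.3 and 338.9 against 677.7 and 713.6 and did not pass (adjusted p = 0.0781).

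Of 49 xenobiotic and glutathione enzymes, EPHX1, the microsomal epoxide hydrolase, fell. Its signals were 218.7 and 158.5 against 605.0 and 613.3 (3.27-fold lower, log2 -1.71 ± 0.24, adjusted p = 0.0109). Of 19 steroid enzymes, HSD17B11, a relative of HSD17B14, was called beside HSD17B14 itself, with 7.1 and 4.9 against 0.7 and 0.6. All 4 of those values lie under the floor, so no fold is given. HSD17B11 entered the test only through the SKBR3-labelled arrays, and with ZR75-1 arrays alone its adjusted p was 0.447. AKR1C2, which reduces steroid ketones, had 29.5 and 22.3 against 5.5 and 15.7 and did not pass (adjusted p = 0.404). None of 41 amino acid and 26 nucleotide genes was called by limma, where an unadjusted p under 0.05 gave 2 higher and 6 lower of the amino acid genes and 2 and 4 of the nucleotide genes.

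In chromatin, 3 of 164 tested genes rose and 7 fell, against shares of 0.605% and 0.806% over all genes. SATB1 was among the falls, from signals mostly under the floor, and the theme's median was -0.10. The rises were the linker histone H1-2, the core histone H2BC12 and DEK, and the falls included the linker histone H1-10, the remodelling subunit ARID1A, the corepressor TRIM28 and the lamin LMNA. H1-2 had signals of 387.9 and 327.6 against 198.3 and 177.2 (1.90-fold higher, log2 0.93 ± 0.14, adjusted p = 0.0147). H2BC12, an H2B gene of the histone clusters, had 1535.2 and 1556.1 against 1069.1 and 847.1 (1.62-fold higher, adjusted p = 0.0449). H1-10, a linker histone encoded outside those clusters, had 121.9 and 91.7 against 229.0 and 195.2 (2-fold lower, adjusted p = 0.0498). So 2 of 31 histone genes rose and 1 fell, and the list's median was 0.17, against 0.24 in the SKBR3-labelled cells. The coding sequences of clustered histones are close to each other, so a probe set can bind transcripts of several.

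The windows before the starts of these genes and of the fallen PKM, ENO2 and IGFBP4 are shown to compare which of 2 motifs they hold, if any. Each holds the 150 bases before the first listed RefSeq start on the gene's strand, 5′ to 3′, in GRCh38.p14. Capitals mark CCAAT, the site of the factor NF-Y common before histone genes, and GGGCGG, the GC box that Sp factors bind, each on either strand and counted where they overlap. H2BC12 has 2 listed starts and the others 1.
H1-2, chr6:26056471-26056620, minus strand: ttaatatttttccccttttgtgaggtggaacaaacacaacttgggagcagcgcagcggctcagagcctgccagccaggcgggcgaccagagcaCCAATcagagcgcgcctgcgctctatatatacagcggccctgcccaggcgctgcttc
H2BC12, chr6:27146859-27147008, minus strand: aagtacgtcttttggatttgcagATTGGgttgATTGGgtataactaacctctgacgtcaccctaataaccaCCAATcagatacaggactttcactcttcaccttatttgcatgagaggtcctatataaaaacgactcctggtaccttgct
H1-10, chr3:129316287-129316436, minus strand: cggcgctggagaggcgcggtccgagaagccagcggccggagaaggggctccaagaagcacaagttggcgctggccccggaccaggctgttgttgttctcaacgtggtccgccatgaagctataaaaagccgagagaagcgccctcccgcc
PKM, chr15:72231191-72231340, minus strand: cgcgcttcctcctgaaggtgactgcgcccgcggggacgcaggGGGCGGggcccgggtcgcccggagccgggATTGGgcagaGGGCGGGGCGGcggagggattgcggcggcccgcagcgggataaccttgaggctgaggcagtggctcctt
ENO2, chr12:6914430-6914579, plus strand: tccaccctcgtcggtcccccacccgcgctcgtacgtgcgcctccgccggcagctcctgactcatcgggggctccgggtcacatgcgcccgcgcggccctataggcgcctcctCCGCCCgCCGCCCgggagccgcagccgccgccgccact
IGFBP4, chr17:40443300-40443449, plus strand: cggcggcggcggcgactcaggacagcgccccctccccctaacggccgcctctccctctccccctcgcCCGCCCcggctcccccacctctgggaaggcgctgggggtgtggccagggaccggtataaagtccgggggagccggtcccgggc

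H1-2 and H2BC12, which rose, hold 1 and 3 CCAAT matches and no GC box, and H1-10, which fell, holds neither. PKM holds 3 GC boxes and 1 CCAAT, ENO2 holds 2 GC boxes and IGFBP4 holds 1. Over the windows of 27305 genes, 24.4% hold CCAAT and 36.7% hold GGGCGG, so a match is common. In 250 bases before the start, GGGCGG was present for 24 of 35 matched genes that fell (68.6%) and 16 of 28 that rose (57.1%), against 65.2% of 4543 tested genes. CCAAT was present for 28.6% and 46.4%, against 35.6%. USF2, which fell, binds the E-box CACGTG, which was present for 8.57% and 10.7%, against 8.94%. The median GC content was 66.8% for genes that fell and 65.6% for those that rose, against 64.4%.

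Among remodelling complexes, ARID1A, a subunit of the SWI/SNF complex, had signals of 30.9 and 23.8 against 92.3 and 101.7 (3.57-fold lower, log2 -1.84 ± 0.40, adjusted p = 0.0463), the 1 call of 40. SMARCC2, a core subunit of the same complex, had 46.7 and 39.8 against 102.6 and 106.2 and did not pass (adjusted p = 0.0818), and SMARCA5, the motor of ISWI complexes, had 157.6 and 183.7 against 99.3 and 92.9 (adjusted p = 0.0814). The members thus had values on both sides of 0, and the list's median was -0.24, against -0.04 after centring.

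Of 61 histone-modifying enzymes and readers, 2 fell and none rose. TRIM28, the corepressor that KRAB zinc finger proteins recruit, had signals of 305.1 and 353.9 against 750.1 and 658.4 (2.14-fold lower, adjusted p = 0.0305). KAT6A, a histone acetyltransferase, had 236.5 and 224.0 against 397.3 and 398.7 (1.73-fold lower, adjusted p = 0.0305). In this list 30 of 61 genes were above 0, and the median was -0.05.

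Of 32 architectural chromatin genes, DEK rose and SATB1, HMGA1 and LMNA fell. LMNA, the A-type lamin under the nuclear envelope, had signals of 381.9 and 484.8 against 806.8 and 916.5 (2-fold lower, log2 -1.0 ± 0.16, adjusted p = 0.0177). HMGA1, an architectural protein that binds AT-rich DNA, had 109.9 and 91.2 against 193.1 and 173.8 (1.83-fold lower, adjusted p = 0.0305). DEK, a DNA-binding protein that alters DNA topology, had 174.9 and 187.6 against 117.2 and 112.3 (1.58-fold higher, adjusted p = 0.0446). SATB1, an organiser of chromatin loops, had 0.9 and 0.9 against 10.2 and 20.5, with 1 of 4 values above the floor, which allows no fold. SATB1 would not have passed the filter on the ZR75-1 arrays alone, and fitted on these its limma adjusted p was 0.171. With values raised to the floor its log2 change was -0.11. Each of these 4 genes showed no overlap between the groups, as did all 77 called genes and 46.6% of all genes. YY1, a zinc finger factor that bridges promoters and enhancers, had probe sets that went opposite ways. On 1 of them it had 164.1 and 199.6 against 327.6 and 321.7 (1.79-fold lower, adjusted p = 0.0306). Its brightest had 312.6 and 428.5 against 238.5 and 223.3 (log2 0.67 ± 0.20) and did not pass (adjusted p = 0.106), so YY1 is not counted among the 44.

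In adhesion, 2 of 156 tested genes rose and 3 fell, against shares of 0.605% and 0.806% over all genes. SRPX was among the rises, from signals under the floor, and the theme's median of -0.25 lay below the -0.05 of all genes. Integrin alpha 3 and a tetraspanin that partners with integrins were both lower, as was a collagen-modifying enzyme. ITGA3, which pairs with integrin beta 1 to bind laminin, had signals of 7.4 and 19.9 against 43.3 and 46.7 (log2 -1.89 ± 0.40, adjusted p = 0.0449). HSD17B14 array 1 lay under the floor. With values raised to the floor ITGA3 was 2.40-fold lower (log2 -1.26, adjusted p = 0.043), and without that array its change was -1.18 and was not called. CD81, the tetraspanin, had 381.7 and 292.4 against 761.5 and 666.7 (2.13-fold lower, adjusted p = 0.0147). ITGB4, the integrin of hemidesmosomes, had 41.8 and 40.2 against 102.2 and 87.6 and did not pass (adjusted p = 0.0581). ZYX, zyxin of focal adhesions, had 4.9 and 27.9 against 62.4 and 77.4 (adjusted p = 0.0734). Of 39 integrin and focal adhesion genes 2 fell, none rose and 27 were below 0. Their median was -0.36, against -0.15 after centring, -0.16 after quantile normalization and 0.04 in the SKBR3-labelled cells.

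PTPRM, a receptor phosphatase that binds its like on neighbouring cells, was the 1 call of 49 junction genes. It had 52.1 and 44.1 against 13.4 and 2.4. This was called by limma (adjusted p = 0.0446). With values raised to the floor it was a rise of at least 2.72-fold, which did not pass (limma adjusted p = 0.0788). Beta-catenin (CTNNB1), which links cadherins to actin, had 101.4 and 140.3 against 62.2 and 72.8 and did not pass (adjusted p = 0.0837). Of 69 matrix genes, PLOD3, which hydroxylates collagen lysines and adds sugars to them, had 99.5 and 135.5 against 323.6 and 289.0 (2.63-fold lower, log2 -1.40 ± 0.20, adjusted p = 0.0109). SRPX, a secreted sushi-repeat protein, was called higher with 6.9 and 8.0 against 1.4 and 1.3, all under the floor. It entered the test only through the SKBR3-labelled arrays, and with ZR75-1 arrays alone its adjusted p was 0.427. BSG, basigin, a surface glycoprotein that induces matrix proteases and was on no list, fell 1.97-fold (adjusted p = 0.0498).

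In the cytoskeleton, 1 of 152 tested genes rose and 2 fell, against shares of 0.605% and 0.806% over all genes. The theme's median was -0.17, with 38.2% of its genes above 0. ACTN4, alpha-actinin 4, which crosslinks actin filaments, had signals of 172.7 and 141.7 against 451.9 and 414.2 (2.77-fold lower, log2 -1.47 ± 0.22, adjusted p = 0.0129). CSRP2, a LIM protein of actin bundles, had 16.4 and 13.5 against 0.6 and 1.1 (adjusted p = 0.00181), again with no value above the floor. Of 70 actin genes these 2 were called and 44 were below 0. The median was -0.19, against -0.05 for all genes, and -0.10 after quantile normalization, against 0.03. When the fit included the actin ratio, ACTN4 had a log2 change of -1.73 ± 0.31 (adjusted p = 0.11) and CSRP2 3.85 ± 0.58 (adjusted p = 0.0906).

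None of 61 microtubule genes was called by limma, with 6 higher and 11 lower at an unadjusted p under 0.05. Among 21 intermediate filament genes LMNA was the 1 call, and the simple epithelial keratins KRT8, KRT18 and KRT19 had log2 changes of -0.10 ± 0.14, -0.28 ± 0.20 and -0.20 ± 0.15, none of which passed.

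In secretion, 6 of 371 tested genes rose and 4 fell, against shares of 0.605% and 0.806% over all genes. CXCL2 and CST4 were among the rises, from controls under the floor, and the theme's median was -0.01. The rises lay in the ER, the early Golgi, the lysosome and among secreted factors, and the falls included a growth factor binding protein and a mucin. SEC11A, the catalytic subunit of signal peptidase, had signals of 1007.3 and 886.7 against 572.2 and 610.2 (1.60-fold higher, adjusted p = 0.0495). TMED9, a cargo receptor of vesicles between ER and Golgi, had 859.0 and 1087.6 against 582.2 and 568.7 (1.68-fold higher, adjusted p = 0.0427). The GTPase RAB1B, which acts on the same route, had 247.2 and 219.0 against 469.5 and 393.0 (1.85-fold lower, adjusted p = 0.0498). Genes of 1 route thus went both ways. Of 56 ER genes 1 rose, 35 were above 0, and the median was 0.15, against 0.35 after centring. FKBP11, an ER proline isomerase, had 233.8 and 137.0 against 72.0 and 82.3 and did not pass (adjusted p = 0.0528). Of 77 genes of ER to Golgi and Golgi transport 1 rose and 1 fell, with a median of 0.00.

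HGS, which sorts ubiquitinated receptors on endosomes, had signals of 159.7 and 183.1 against 378.2 and 314.2 (2.02-fold lower, adjusted p = 0.0304), the 1 call of 90 vesicle genes. LGMN, the lysosomal protease legumain, had 84.1 and 92.1 against 37.3 and 24.7 (2.90-fold higher, log2 1.54 ± 0.30, adjusted p = 0.0305), the 1 call of 54 lysosomal genes. CTSD, cathepsin D, had 410.9 and 366.8 against 845.9 and 697.7 and did not pass (adjusted p = 0.11).

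Of 94 secreted factors 3 rose and 2 fell. IGFBP4 had signals of 95.4 and 75.5 against 247.4 and 234.7 (2.84-fold lower, log2 -1.51 ± 0.17, adjusted p = 0.00371). MUC1, the luminal surface mucin, had 567.1 and 413.3 against 1348.3 and 1034.3 (2.44-fold lower, adjusted p = 0.0379). IL6, the inflammatory cytokine, had 48.1 and 61.8 against 12.6 and 19.2 (log2 1.81 ± 0.32, adjusted p = 0.0273). One of its controls lay under the floor, and with values raised to the floor IL6 was 2.97-fold higher. The groups did not overlap for any of these 3, as for all 77 called genes and 46.6% of all genes. CXCL2, a neutrophil chemokine, and CST4, a salivary cystatin, were called higher from control signals of 2.2 and 0.8, and 2.6 and 1.0, to 13.9 and 11.9, and 19.3 and 13, which allows no fold. CXCL2 entered the test only through the SKBR3-labelled arrays. With ZR75-1 arrays alone the limma adjusted p was 0.252 for CXCL2 and 0.204 for CST4. The list's median was -0.11, and 0.10 after centring.

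**Figure D3:**
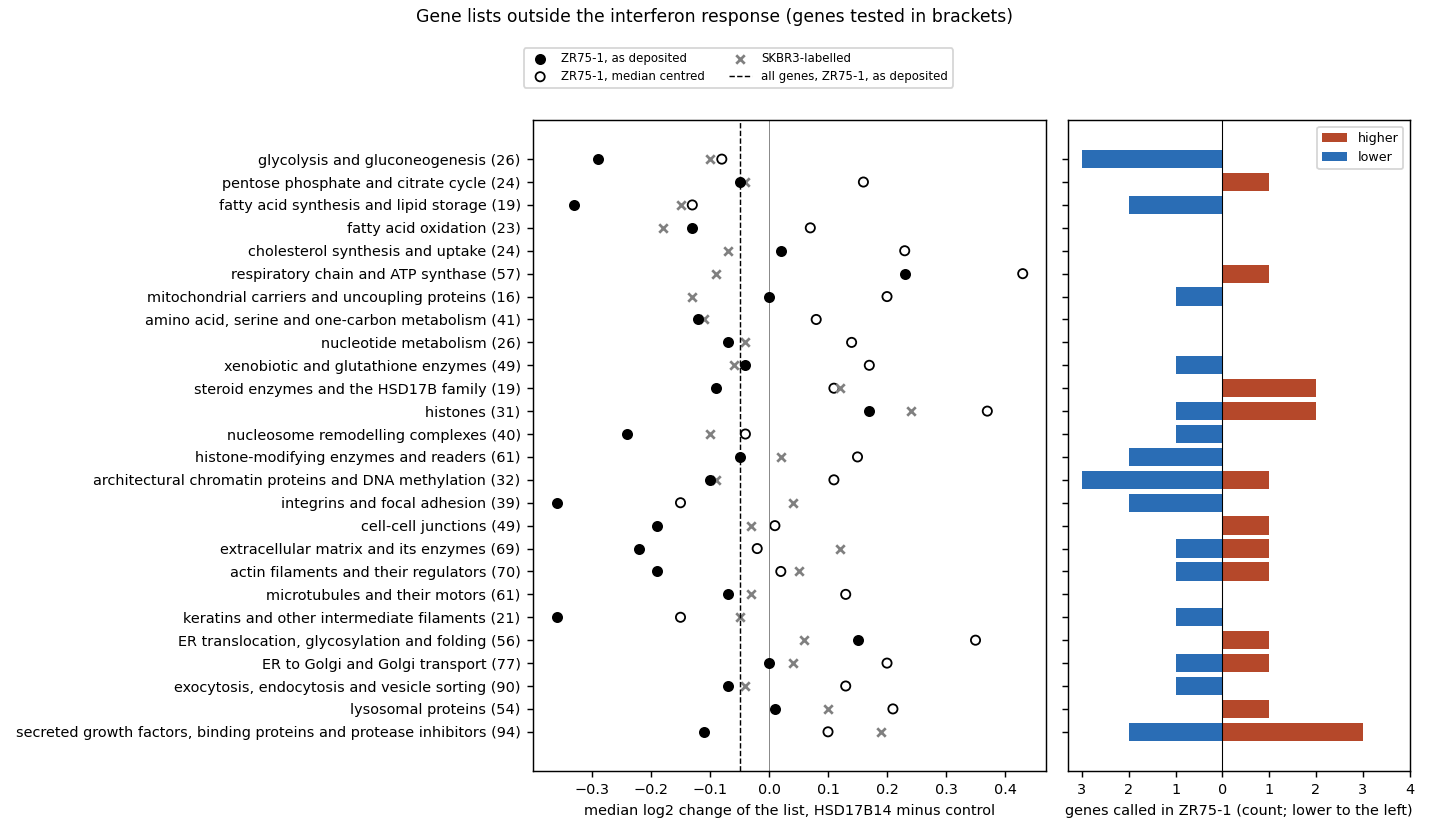
The left panel gives each list's median log2 change for ZR75-1 as deposited (filled), for ZR75-1 after median centring (open) and for the SKBR3-labelled cells (crosses), with the median of all genes dashed; the right panel counts the called genes. The respiratory chain lies farthest right at 0.23 and the integrin and keratin lists farthest left at -0.36, and no list has more than 3 calls in 1 direction.

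The called genes on no list had varied roles. Among those that rose, S100P, a calcium-binding protein of many carcinomas, had signals of 1115.1 and 1094.4 against 401.9 and 504.2 (2.45-fold higher, log2 1.30 ± 0.22, adjusted p = 0.0262). ID1, which blocks basic helix-loop-helix factors, had 742.4 and 667.9 against 299.3 and 351.3 (2.17-fold higher, adjusted p = 0.0305). PLAAT4, a phospholipase known as a retinoid-induced growth suppressor, had 450.5 and 517.1 against 216.2 and 189.4 (2.39-fold higher, adjusted p = 0.0294). GLRX, glutaredoxin, rose 3.05-fold, the splicing factor MBNL1 2.43-fold, the apoptosis inhibitor BIRC2 1.91-fold and the transcription factor MAFF 1.94-fold (adjusted p from 0.0185 to 0.0449). SPAG9, UTP6, NOL7 and TSC22D1 rose 1.70-, 1.79-, 1.61- and 1.67-fold. PRSS23, a serine protease, had 27.0 and 19.8 against 2.5 and 8.9 (adjusted p = 0.0305). With values raised to the floor PRSS23 was at least 1.31-fold higher and did not pass (limma adjusted p = 0.357).

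Among the falls on no list, PLK1, the mitotic kinase, had signals of 108.9 and 100 against 275.9 and 343.7 (2.95-fold lower, log2 -1.56 ± 0.23, adjusted p = 0.0124). The small GTPase HRAS had 54.3 and 47.5 against 148.5 and 116.4 (2.59-fold lower, adjusted p = 0.0304), and the kinase AKT1 had 113.4 and 125.4 against 237.1 and 268.4 (2.12-fold lower, adjusted p = 0.0427). GNB2, a G protein beta subunit, had 202.2 and 212.3 against 425.5 and 448.4 (2.11-fold lower, adjusted p = 0.0109). RBPJ, the DNA-binding partner of Notch, fell 2.40-fold (adjusted p = 0.0449). PTOV1 fell 4.00-fold (adjusted p = 0.0304), and USF2 had 5.9 and 7.9 against 31.9 and 65.9 (adjusted p = 0.0305). With values raised to the floor USF2 was at least 2.61-fold lower and did not pass (limma adjusted p = 0.13). The ubiquitin-activating enzyme UBA1 fell 1.97-fold, the chaperone partner BAG6 2.25-fold and the elongation factor EEF1A2 1.89-fold (adjusted p from 0.0273 to 0.0305). The ribosomal protein gene RPL38 rose 1.95-fold (adjusted p = 0.0305) while MRPL49, of the mitochondrial ribosome, fell 1.81-fold (adjusted p = 0.0273). S100A11, SH3BGRL3, FKBP1A, PCBP2, HDGF and CCNI fell by 1.77-, 1.77-, 1.86-, 1.77-, 1.61- and 1.68-fold. A further PCBP2 probe set had a log2 change of -0.70 ± 0.54 and did not pass (limma adjusted p = 0.532).

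Many of the genes that rose have higher signals in the other line. For 23 of the 33 genes that rose, both SKBR3-labelled controls lay above all 4 ZR75-1 arrays, against 27.1% of all 5457 genes. Among genes above the floor on all 4 ZR75-1 arrays this was 14 of 22, against 27.7% of 3527. The calls use a spread and a filter shared with the SKBR3-labelled arrays. A gene dim in ZR75-1 but bright in the other line can thus be called more easily. The SE of SRPX, for example, was 0.53, against 1.47 with ZR75-1 arrays alone. How much of these shares comes from the shared fit was not tested. For 17 of the 44 genes that fell both SKBR3-labelled controls lay below all ZR75-1 arrays, against 23.4% of all genes. A set of 61 genes had signals above 100 in both SKBR3-labelled controls and a mean under the floor in ZR75-1, and their summed signal was 657.1 and 537.9 with HSD17B14 and 638.4 and 505.9 in the controls. These sums overlap, while the set's median log2 change was 0.37, with 36 of 61 genes above 0, against -0.05 and 46.3% of all genes. The set was chosen after its values were seen, and by its rule these changes are between values that average under the floor. Of its genes 4 were called higher and 1 lower. Of the genes that rose 4, and of those that fell 2, would not have passed the filter on the ZR75-1 arrays alone.

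The plasmid's effect was set against that in the SKBR3-labelled cells. For 20 of 5457 genes the difference between the lines passed limma (0.367%), and 13 of these were among the 77 called in ZR75-1. Of the 77 genes, 43 had a fitted change of the same sign in the other line, and 1, HSD17B14, was called there. The genes that rose in ZR75-1 had a median log2 change of 0.08 in the SKBR3-labelled cells, and those that fell had -0.03. No control array is shared between the lines.

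The 13 genes were lower in ZR75-1 in 10 cases and higher in 3. PKM had a log2 change of 0.11 in the SKBR3-labelled cells, a difference of -1.29 ± 0.24 (95% interval -1.80 to -0.77, adjusted p = 0.0375). TPI1 had 0.27, a difference of -0.96 (adjusted p = 0.0441). ACTN4 differed by -1.67 (adjusted p = 0.0413), CD81 by -1.29 (adjusted p = 0.0375) and IGFBP4 by -1.49 (adjusted p = 0.0204). MUC1 differed by -2.38 (adjusted p = 0.0176), with signals of 26.7 and 24.4 against 9.5 and 15.1 in the SKBR3-labelled cells, where both controls lay under the floor. For EPHX1, at -2.19 (adjusted p = 0.0167), the SKBR3-labelled signals ran from 19.2 to 32.8, near the floor. NDC80, of the kinetochore, and RPL38 had a log2 change of 0.88 and 0.96 in ZR75-1 and of -0.39 and -0.71 in the other line. CSRP2 was under the floor in ZR75-1 and between 265.5 and 317.2 on the SKBR3-labelled arrays.

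**Figure D4:**
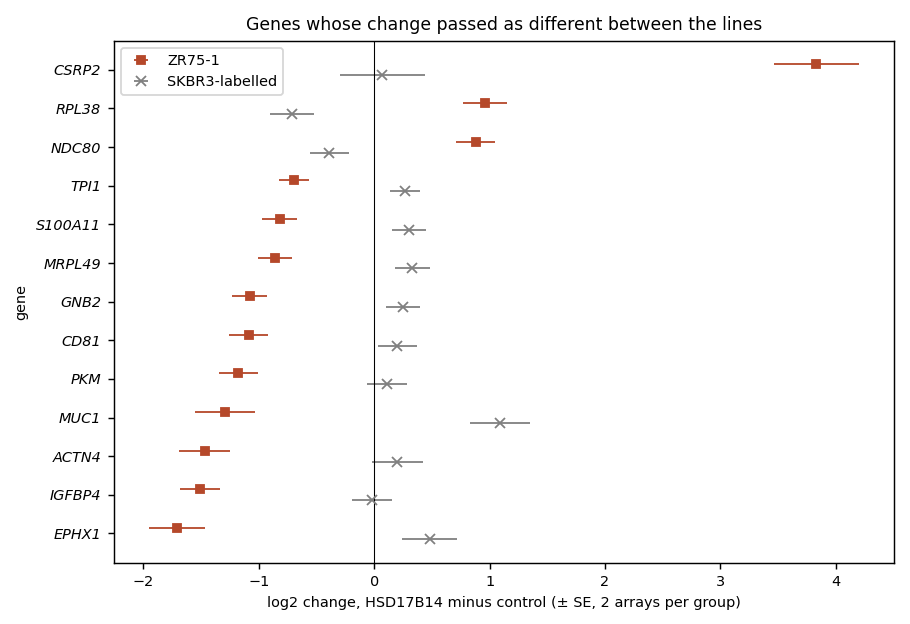
Points give the fitted log2 change with its standard error in ZR75-1 (squares) and in the SKBR3-labelled cells (crosses) for the 13 genes whose difference passed. In ZR75-1 10 genes lie left of 0, from -0.70 for TPI1 to -1.71 for EPHX1, and 3 lie right of it.

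For other genes called in ZR75-1 the difference missed the threshold, and its interval says how much difference the data allow. UCP2 had a log2 change of -0.62 in the SKBR3-labelled cells, with signals of 204.9 and 241.2 against 401.0 and 289.6, and the difference was -1.14 (95% interval -1.69 to -0.59, adjusted p = 0.0804). IL6 had 1.39, a difference of 0.42 (95% interval -0.56 to 1.41, adjusted p = 0.751), and LGMN had 1.26, a difference of 0.28 (-0.65 to 1.21, adjusted p = 0.832). H2BC12 had 0.42, a difference of 0.28 (-0.18 to 0.75, adjusted p = 0.614). FASN had -0.18, a difference of -1.36 (-2.16 to -0.55, adjusted p = 0.148). For FASN, as for UCP2, the unadjusted interval lies below 0 while the adjusted p misses the threshold.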

How the data were processed

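The deposited values were signal intensities on a linear scale, 1 per probe set and array, made by the authors with MAS5, per the submitters' processing notes. Every array has a mean of 100.1 after trimming, so a change is relative to that scaling. Of 8793 probe sets, 47 controls were left out. The platform annotation gives 7840 of the remaining 8746 a single symbol, 388 several and 518 none here. Values below 1 were raised to 1 and log2 was taken. Probe sets above their array's 40th percentile on at least 2 arrays were tested, 6251 in all, and a gene is represented by its tested probe set with the highest mean. limma 3.58.1 (R 4.3.3) fitted the means of all 4 groups, with eBayes and a prior that follows the mean level, at 4 residual degrees of freedom plus 7.39 from the prior; the fit was tested on simulated data. A ± value is a standard error from this fit (n = 2 arrays per group). The number of arrays limits precision, and the file has no detection calls. The genes and lists were chosen with earlier results of these data known. Named genes were the called ones, by list, and per list up to 4 members with the largest moderated t. A gene counts as called only if the probe set that represents it was called, so the called probe set of YY1 does not count. A further 6 called probe sets without a single symbol are not named. Some further items are not reported here. The 20 alternatives changed normalization, filter, offset, prior, block, covariate or the arrays included. Promoter sequences are from RefSeq (GRCh38.p14) and matched 4543 of 5457 genes. Replicate numbers were not used as pairs in the main fit. In ZR75-1 the deviations of replicate 1 from its group mean had a correlation of -0.044 between the groups. This was not computed for the SKBR3-labelled arrays. matplotlib 3.10.9 (Python 3.11.15) drew the figures.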

Additional observations from a re-analysis of the deposited data

Results flagged for a closer look

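The plasmid's effect differed between the lines, ZR75-1 minus SKBR3-labelled on the log2 scale, by limma for 13 genes called in ZR75-1. The difference was below 0 for MUC1 (-2.38), EPHX1 (-2.19), ACTN4 (-1.67), IGFBP4 (-1.49), GNB2 (-1.33), CD81 (-1.29), PKM (-1.29), MRPL49 (-1.19), S100A11 (-1.12) and TPI1 (-0.96). It was above 0 for CSRP2 (3.76), RPL38 (1.67) and NDC80 (1.27). The size for CSRP2 rests on ZR75-1 signals under the floor and that for MUC1 on SKBR3-labelled controls under it.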

How the results depend on the processing

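With 2 arrays per group, and 1 in an arm when an array is left out (its spread is then taken from the other groups), the counts of called genes are loosely set. For the 33 higher and 44 lower genes of ZR75-1, the counts were 13 and 5 with median centring, 21 and 29 without a filter, 63 and 153 with log2 of the value plus 32, and 9 and 4 with a prior without mean dependence. They were 0 and 1 with the actin ratio as covariate, 4 and 10 with a block for the spike-in level, 21 higher with values raised to the floor and 93 lower with ZR75-1 alone. The spike-in level is the median log2 signal of the Bacillus control probe sets. In ZR75-1 it was 5.64 and 7.37 on HSD17B14 arrays 1 and 2 and 5.57 and 5.05 on the controls. Leaving out 1 array gave 2 to 49 higher and 9 to 73 lower. For the difference between the lines (4 higher and 16 lower), they were 1 and 2 with centring, 2 and 7 without a filter, 8 and 30 with log2 of the value plus 32, 0 and 0 with that prior and with the actin ratio, 2 and 9 with the spike-in block, and 8 lower after quantile normalization. Leaving out 1 array gave 0 to 14 higher and 2 to 19 lower. With the replicate block the counts were 37 and 45, and 4 and 15 for the difference; 5 of the 77 genes were no longer called. The cause was not tested for any of these. Of 27 list medians, the interferon list's among them, 23 moved by more than the spread between arrays with centring and 9 with quantile normalization. Centring moves every gene by the same amount, so the 23 reflect that common shift.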
